A study of Mus musculus with 16 samples.

Results

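The 7 genes described here encode the enzymes that write and erase methylation at cytosine in DNA, together with the factor that guides its copying: Dnmt1, Uhrf1, Dnmt3a, Dnmt3b, Tet1, Tet2 and Tet3. They were taken by name, as a family defined by function, from the 54347 genes in the count table, and the rule for membership used no measured value. RNA had been sequenced from stem and progenitor cells of mouse bone marrow, in 4 libraries for each of 4 groups and 16 libraries in all. UREΔ mice, called URE below, lacked the upstream regulatory element, an enhancer of Spi1, the gene of the myeloid transcription factor PU.1, and were studied in their preleukemic phase. WT littermates carried the intact enhancer, and both genotypes were on a C57BL/6 background and aged 8 to 12 weeks. From each genotype, LSKs (Lin-Sca-1+c-Kit+ cells, which hold the stem cells and multipotent progenitors) and GMPs (Lin-Sca-1-c-Kit+Cd16/32+ cells, the granulocyte-monocyte progenitors) were sorted after enrichment on c-Kit. The enhancer was absent from the germline, so every cell of the animal carried the deletion and not the sorted cells alone, and both gates were set on surface markers in both genotypes.

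DNA methylation in mammals sits mostly on cytosines that precede a guanine. When DNA is copied, Uhrf1 recognises the half-methylated product and brings in Dnmt1, the maintenance methyltransferase, which restores the mark on the new strand. Dnmt3a and Dnmt3b place methylation de novo, and Tet1, Tet2 and Tet3 oxidise methylcytosine, a step that leads to its removal, with oxygen, iron and alpha-ketoglutarate as cofactors. Dnmt3a, Tet2 and the isocitrate dehydrogenases Idh1 and Idh2 are among the genes recurrently mutated in human acute myeloid leukemia, and loss of Dnmt3a or Tet2 is known to enlarge the stem cell compartment of mice.

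Levels are given as CPM, the usual unit of counts per 1e6 after TMM scaling over the 16 libraries. Differences are given as log2 fold changes from edgeR's quasi-likelihood test, with a Benjamini-Hochberg adjusted p over all genes tested in that comparison. The test prints no standard error (SE), and the SE given here is the absolute log2 fold change divided by the square root of the test's F. A gene was called when the adjusted p was below 0.05 and the fold change exceeded 1.5. The libraries held 20028302 to 29128858 counts. Spi1 followed the labels: it was at 1.13 to 4.44 CPM in the 4 URE LSK libraries against 69.5 to 165.6 CPM in WT LSKs, and at 15.6 to 28.6 CPM in URE GMPs against 84.8 to 181.4 CPM in WT GMPs. The summed level of 8 GMP markers (Mpo, Elane and others) was 55795 to 160710 CPM in the GMP libraries and 701 to 1621 CPM in the LSK libraries, and that of 8 stem and multipotent progenitor markers was 1727 to 3972 CPM in LSKs and 428 to 1570 CPM in GMPs, so the sorted populations matched their names. Transcripts from the Y chromosome were present in replicate 1 of the URE animals and in replicates 1, 2 and 3 of the WT animals, in both cell types, so sex was unevenly spread over the genotypes. The values are from bulk RNA, in which fewer cells of a type and less RNA per cell cannot be told apart.

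The 3 promoter windows printed here were chosen because they belong to the members on which the results turn. Tet1 was the member whose level changed with genotype, and Dnmt1 and Uhrf1 were the pair whose levels moved most closely together. Of 3 windows for Dnmt1 and 2 for Uhrf1, the ones printed were picked after the motif search, as those that hold TTTCGCGC. The other Dnmt1 windows held 2 and 12 CpG dinucleotides and none of the motifs below. Each window runs from 250 bases before to 50 bases after a RefSeq transcription start on GRCm38.p6, read 5′ to 3′ on the gene's strand, and lies at chr10:62887275-62887574 on the minus strand for Tet1, chr9:20952574-20952873 on the minus strand for Dnmt1 and chr17:56304063-56304362 on the plus strand for Uhrf1. Capitals mark matches, on either strand, to the PU.1 motif AGGAAGT or to the E2F motifs TTTCGCGC, TTTGGCGC and GGCGGGAA.
Tet1: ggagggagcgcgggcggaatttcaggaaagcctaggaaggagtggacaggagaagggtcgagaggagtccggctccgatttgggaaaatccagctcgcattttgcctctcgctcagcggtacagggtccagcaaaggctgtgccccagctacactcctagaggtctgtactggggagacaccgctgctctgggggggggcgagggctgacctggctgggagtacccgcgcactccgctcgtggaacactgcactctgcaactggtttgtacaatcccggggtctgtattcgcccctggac
Dnmt1: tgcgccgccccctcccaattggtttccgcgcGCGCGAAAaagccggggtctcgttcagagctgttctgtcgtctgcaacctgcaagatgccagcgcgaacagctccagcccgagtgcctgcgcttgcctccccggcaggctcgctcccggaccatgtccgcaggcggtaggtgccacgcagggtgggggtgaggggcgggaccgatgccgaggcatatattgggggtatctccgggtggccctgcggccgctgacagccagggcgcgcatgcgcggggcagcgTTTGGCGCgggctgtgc
Uhrf1: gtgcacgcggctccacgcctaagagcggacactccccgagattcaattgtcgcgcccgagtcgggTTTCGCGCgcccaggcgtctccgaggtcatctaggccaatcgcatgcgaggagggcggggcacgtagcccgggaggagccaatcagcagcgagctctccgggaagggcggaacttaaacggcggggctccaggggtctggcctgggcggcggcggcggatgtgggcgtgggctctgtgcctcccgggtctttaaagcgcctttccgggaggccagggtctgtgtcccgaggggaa
RefSeq gave 12 windows for the 7 genes, all of which matched by symbol. The longer PU.1 motif GAGGAAGT contains the shorter AGGAAGT, which 9.35% of all 32851 mouse promoter windows of this length held and none of the 12 did. The E2F motif TTTCGCGC was in 0.323% of all windows and stood once in the Dnmt1 window and once in the Uhrf1 window shown. TTTGGCGC, present in 0.514% of all windows, stood once more in the Dnmt1 window, apart from the other match, and GGCGGGAA, present in 2.19%, stood once in the other Uhrf1 window, at chr17:56303087-56303386. A RUNX motif, TGTGGT, and a GATA motif, AGATAA, were also searched. TGTGGT, present in 16.8% of all windows, stood once in that other Uhrf1 window and in no other of the 12. AGATAA, present in 11.2%, was in none of the 12. The Tet1 window lies inside the gene as GENCODE places it, and does not cover that gene's 5′ end, at chr10:62908996, which was not searched. The Tet1 window held none of these letters. It held 17 CpG dinucleotides, the Dnmt1 and Uhrf1 windows 33 each and the Tet2 window 57, against a median of 7 over all windows. A match is a stretch of letters and was not tested as a binding site.

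In the annotation of GRCm38 (GENCODE M21) the members are protein-coding genes on 7 different chromosomes: Dnmt1 at chr9:20907209-20959888, Uhrf1 at chr17:56303321-56323486, Dnmt3a at chr12:3806007-3914443, Dnmt3b at chr2:153649450-153687730, Tet1 at chr10:62804570-62908996, Tet2 at chr3:133463679-133545139 and Tet3 at chr6:83362373-83459084. Libraries were not strand-specific, and of the exonic bases 0.799% in Dnmt3a and 0.255% in Tet2 were shared with an antisense gene, and none in the other 5 members. Per length, as mean CPM per kilobase of the longest coding transcript, the maintenance pair led in every group: Dnmt1 at 54.6 to 78.4 and Uhrf1 at 46.3 to 70.0 over the 4 group means. These were followed at a distance by Dnmt3a at 5.998 to 12.4, Dnmt3b at 5.17 to 11.9, Tet2 at 4.77 to 6.93, Tet3 at 2.69 to 3.46 and Tet1 at 0.920 to 6.01. Dnmt1 and Uhrf1 did not differ beyond their spread, with SDs over replicates of 32.5 to 54.7 and 22.1 to 39.6 on this scale. With merged exon length, Dnmt1 and Uhrf1 were again the top pair in each group and Tet1 again the lowest in both GMP groups, while other places in the order differed in part between the lengths.

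**Figure D1:**
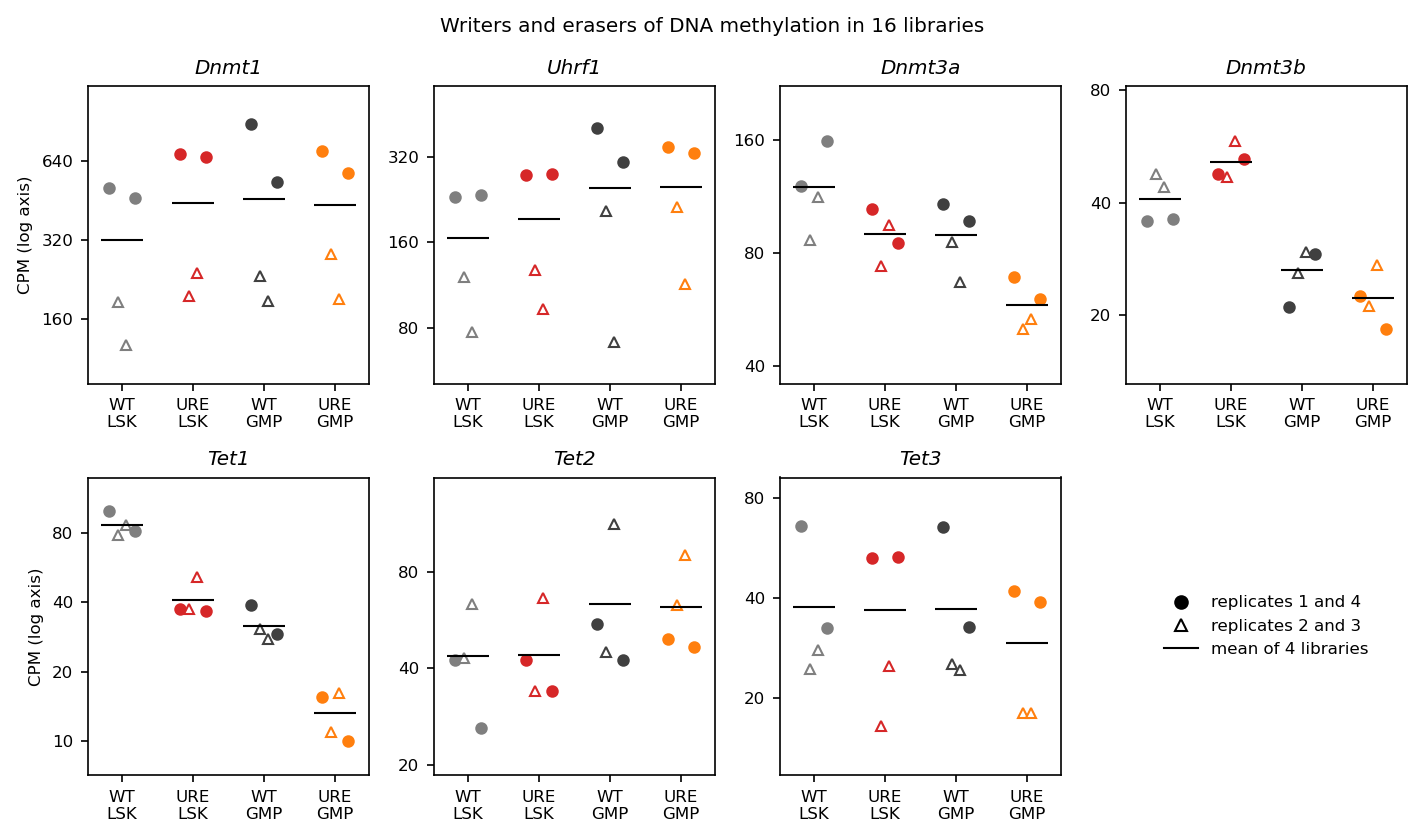
CPM of each member on a log axis in the 4 libraries of each group, with a line at the group mean. Filled circles are replicates 1 and 4, open triangles replicates 2 and 3. Tet1 formed 4 levels, of which only those of URE LSKs and WT GMPs met, from 78.1 to 99.0 CPM in WT LSKs down to 10.0 to 16.2 CPM in URE GMPs, while Dnmt1, Uhrf1 and Tet3 separated by replicate within each group.

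The first question was which of the 7 genes differed between URE and WT cells. Tet1 was lower in URE cells of both types by 2.16-fold in LSKs and 2.39-fold in GMPs, and it was the one member called in each comparison. Among all genes tested, 6.14% were called in LSKs and 8.30% in GMPs, and 1 of 7 members was called in each, so the count alone did not set the family apart. Calls of lower genes alone made up 3.76% and 3.63% of those tested. Dnmt3a was below WT in each numbered pair of both cell types, and no genotype difference in Dnmt1, Uhrf1, Dnmt3b, Tet2 or Tet3 was called.

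Tet1 in LSKs stood at 99.0, 78.1, 86.7 and 81.4 CPM in WT replicates 1 to 4 and at 37.5, 37.5, 51.5 and 36.7 CPM in the URE replicates. The highest URE library lay well below the lowest WT library. The log2 fold change was -1.11 (SE 0.18, adjusted p = 0.00662), and URE was the lower library in 4 of 4 numbered pairs. The exact two-sided permutation test of log2 CPM gave p = 0.0286, unadjusted, which is the smallest value that 4 against 4 libraries allow.

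In GMPs, Tet1 stood at 38.8, 30.5, 27.6 and 29.2 CPM in WT and at 15.6, 11.02, 16.2 and 10.0 CPM in URE. These groups did not overlap either. Of all genes tested, 12.6% had groups without overlap in LSKs and 14.8% in GMPs. The log2 fold change was -1.26 (SE 0.24, adjusted p = 0.0110, n = 4 per group, edgeR), again lower in 4 of 4 pairs. The genotype effects in LSKs and GMPs did not differ by the interaction test (difference of log2 fold changes -0.17, SE 0.27, adjusted p = 0.929), which does not show that they were equal. In replicates 1 and 4, where the URE and WT animals of a number had the same sex, Tet1 was lower in URE by 1.31 in LSKs (adjusted p = 0.0114) and by 1.42 in GMPs (adjusted p = 0.0305) on the log2 scale. Within replicates 2 and 3 the log2 fold changes were -0.92 (adjusted p = 0.202) and -1.11 (adjusted p = 0.255). When the summed level of Y-linked genes entered the fit as a covariate, the LSK call stayed (-1.12, adjusted p = 0.0414) and the GMP call did not (-1.14, adjusted p = 0.0630).

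Of the 8 stem and multipotent progenitor markers, 2, Flt3 and Cd34, were called lower in URE cells of both types together with Tet1. Their log2 fold changes were -1.67 and -1.31 in LSKs and -2.78 and -1.80 in GMPs. The other 6 were not called in either cell type. In LSKs their values were 0.22 for Hlf, 0.15 for Hoxa9, 0.12 for Procr, -0.16 for Mecom, -0.61 for Ly6a and -0.69 for Meis1. In GMPs most were lower in URE: 0.25 for Mecom, 0.18 for Hlf, -0.75 for Ly6a, -0.91 for Hoxa9, -1.05 for Meis1 and -1.82 for Procr (adjusted p = 0.0513, edgeR). The median of the 8 was -0.38 in LSKs and -0.98 in GMPs. The sum of the 8 was 2788 to 3972 CPM in WT LSKs and 1727 to 2143 CPM in URE LSKs, and 1175 to 1570 CPM in WT GMPs and 428 to 499 CPM in URE GMPs. Cd34 alone made up a mean of 1377 CPM in WT and 568 CPM in URE LSKs.

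Markers of other cell types differed as well. Of the 6 monocyte markers, 4 of the 5 tested were called lower in URE LSKs and 5 of 6 in URE GMPs, and their sum was 49.5 to 103.7 CPM in WT LSKs, 10.1 to 17.8 CPM in URE LSKs, 506 to 877 CPM in WT GMPs and 55.2 to 248 CPM in URE GMPs. Of 6 later neutrophil markers, 1 was called higher in URE LSKs and 2 in URE GMPs and none lower, and their sum was 45 to 144 CPM in WT GMPs and 217 to 994 CPM in URE GMPs. Of the 8 GMP markers, Elane (1.15) was called higher and Prtn3 (-2.48) lower in URE LSKs, and Fcgr3 (1.34) higher and Ms4a3 (-1.83) lower in URE GMPs, and their sum did not overlap between WT GMPs (55795 to 71291 CPM) and URE GMPs (73932 to 160710 CPM). Of 4 basophil and mast cell markers, Cpa3 (1.89) and Mcpt8 (2.11) were called higher in URE LSKs, while Ms4a2 (-2.74) and Prss34 (-0.94) were not called. In URE GMPs Mcpt8 (1.48) was called higher and Prss34 (-2.42) and Ms4a2 (-2.92) lower. The megakaryocyte marker Itga2b (1.88) was called higher and the erythroid marker Hbb-bt (-4.54) lower in URE LSKs, 1 call for each of these lists. Of the B cell list, Cd79b was called lower in URE LSKs, where its mean was 29.6 CPM against 66.2 CPM in WT, and in URE GMPs, at 15.3 against 75.7 CPM. Cd79a was at a mean of at most 0.997 CPM in every group, and Pax5 was at 0 in every library outside the WT LSK group, where it had at most 6 counts. The part of these shifts in the Tet1 result was not tested.

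Dnmt3a, a de novo enzyme, was at 120.9, 86.8, 113.3 and 159.9 CPM in WT LSKs and at 105.1, 73.8, 95.2 and 85.3 CPM in URE LSKs. The ranges overlapped, although each URE library was below the WT library of its number, and the log2 fold change of -0.45 (SE 0.21, adjusted p = 0.350) was not called. In GMPs it was at 108.3, 85.8, 66.8 and 97.5 CPM in WT and at 68.8, 50.1, 53.2 and 60.2 CPM in URE. One URE library, replicate 1, lay above the lowest WT library. The log2 fold change was -0.63 (SE 0.19, adjusted p = 0.0827), not called without the replicate number. With the replicate number as a block, which takes same-numbered libraries as pairs, the same difference was called (-0.62, SE 0.14, adjusted p = 0.0181). Of the 7 members 2 were then called in GMPs, against 16.3% of all genes tested. Without WT replicate 3, the lowest WT library, Dnmt3a was called without the block as well, at an adjusted p of 0.0369.

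Dnmt3b, the other de novo enzyme, was at 35.7, 47.7, 44.1 and 36.1 CPM in WT LSKs and at 47.8, 46.7, 58.6 and 52.3 CPM in URE LSKs. Its log2 fold change was 0.30 (SE 0.18, adjusted p = 0.536). In GMPs it was at 21.0, 26.0, 29.6 and 29.1 CPM in WT and at 22.5, 21.2, 27.2 and 18.4 CPM in URE, with a log2 fold change of -0.25 (SE 0.21, adjusted p = 0.594). The signs of the 2 effects were opposite, and the interaction was -0.57 (SE 0.25, adjusted p = 0.363). The groups overlapped in both cell types. No interaction among the 7 members was called by edgeR against 1.22% of all genes tested, and Dnmt3b was the one at an unadjusted p below 0.05. DESeq2 without the block called none and DESeq2 with the block called Dnmt3b, at -0.60 (adjusted p = 0.0235).

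Dnmt1 and Uhrf1, the maintenance pair, varied between replicates far more than between genotypes. Dnmt1 was at 504, 187, 128 and 463 CPM in WT LSKs and at 683, 196, 240 and 662 CPM in URE LSKs. In each of 4 pairs the URE library was the higher, and the log2 fold change was 0.45 with an SE of 0.53 without the block and of 0.15 with it (adjusted p = 0.855 and 0.114). Over the 12 alternatives, adjusted p ranged from 0.0386, with DESeq2 and the block, to 0.961, and in each of them the fold change stayed below the minimum of 1.5. In GMPs Dnmt1 was at 883, 233, 189 and 535 CPM in WT and at 699.5, 283, 192 and 575 CPM in URE, with a log2 fold change of -0.08 (SE 0.55, adjusted p = 0.965). Uhrf1 was at 230, 121, 77.7 and 236 CPM in WT LSKs and at 275, 128, 93.6 and 277 CPM in URE LSKs. Uhrf1 was thus higher in URE in 4 of 4 numbered pairs of LSKs, and in 3 of 4 of GMPs. Its log2 fold changes were 0.19 in LSKs (SE 0.44, adjusted p = 0.951) and 0.02 in GMPs (SE 0.50, adjusted p = 0.992), where it ranged from 71.8 to 404 CPM in WT and from 114 to 347 CPM in URE. Without the block, a fold change of 1.5 in either direction lay within 2 SEs of the estimate for both genes in both cell types. With the block it lay beyond 2 SEs in either direction for Uhrf1 in LSKs (0.18, SE 0.11) and GMPs (0.14, SE 0.16) and for Dnmt1 in GMPs (0.01, SE 0.14), and in LSKs a decrease of that size did for Dnmt1, while an increase did not.

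Tet2, the TET gene most often mutated in myeloid leukemia, was at 42.6, 43.2, 63.3 and 26.0 CPM in WT LSKs and at 42.3, 33.9, 66.1 and 33.9 CPM in URE LSKs. In GMPs it was at 54.8, 44.8, 112 and 42.5 CPM in WT and at 49.1, 63.0, 90.3 and 46.6 CPM in URE. The log2 fold changes were -0.03 (SE 0.32, adjusted p = 0.989) and -0.05 (SE 0.37, adjusted p = 0.969), so the tested difference was far smaller than that of Tet1 and the spread of single libraries wide, with replicate 3 the highest in all 4 groups. Tet3 ranged from 24.5 to 66.0 CPM in WT LSKs and from 16.4 to 53.3 CPM in URE LSKs, and from 24.3 to 65.6 CPM in WT GMPs and from 18.1 to 42.0 CPM in URE GMPs. Its log2 fold changes were -0.07 (SE 0.44, adjusted p = 0.982) and -0.34 (SE 0.41, adjusted p = 0.734). The difference between Tet1 and the other TET genes in their response was not tested as such.

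**Figure D2:**
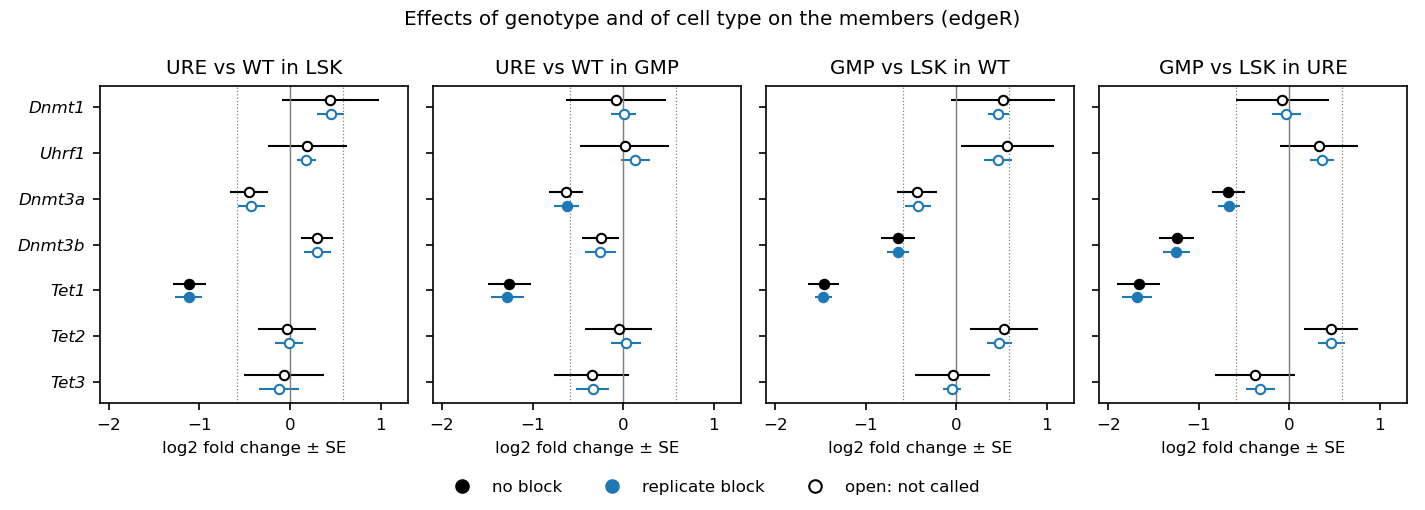
Log2 fold change with its SE for each member in the 4 comparisons of pairs of groups, from edgeR without (black) and with (blue) the replicate number as a block. Filled points were called, and dotted lines mark a fold change of 1.5. Tet1 was called in all 4 comparisons under both fits, and the block narrowed the SE of Dnmt1 in LSKs from 0.53 to 0.15.

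The second question was how the family differed between LSKs and GMPs. These comparisons share their libraries with the genotype comparisons, so their values stand side by side and are not independent of those above. In WT cells 2 of 7 members were called, Tet1 and Dnmt3b, against 27.3% of all genes tested, and in URE cells 3 of 7, Tet1, Dnmt3b and Dnmt3a, against 21.8%. All of these were lower in GMPs, and lower calls made up 15.8% and 12.6% of all genes tested. No member was called higher in GMPs in either genotype, where 11.5% and 9.20% of all genes tested were.

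Tet1 fell from a mean of 86.3 CPM in WT LSKs to 31.5 CPM in WT GMPs and from 40.8 CPM in URE LSKs to 13.2 CPM in URE GMPs. The log2 fold changes were -1.46 (SE 0.17, adjusted p = 0.000414) and -1.66 (SE 0.24, adjusted p = 0.00152), or 2.76-fold and 3.17-fold lower, with no overlap between groups in either genotype, as for 31.4% and 26.6% of all genes tested. Both calls held within replicates 1 and 4 and within replicates 2 and 3. URE LSKs, at 36.7 to 51.5 CPM, and WT GMPs, at 27.6 to 38.8 CPM, were the neighbouring groups in this order and overlapped.

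Dnmt3b fell from 40.9 CPM in WT LSKs to 26.4 CPM in WT GMPs (means of 4) and from 51.4 to 22.3 CPM in URE cells. In URE cells the log2 fold change was -1.24 (SE 0.19, adjusted p = 0.00207), a call lost among the alternatives only within replicates 2 and 3 (adjusted p = 0.101). In WT cells it was -0.64 (SE 0.19, adjusted p = 0.0320), a call that was lost in 6 of the 8 fits that left out 1 library, namely without WT GMP replicate 1, 2 or 4 or WT LSK replicate 2, 3 or 4, where adjusted p reached 0.0979. It was also lost with DESeq2's size factors (-0.57, adjusted p = 0.0565). Dnmt3a fell from 89.9 to 58.1 CPM in URE cells, by 0.67 on the log2 scale (SE 0.18, adjusted p = 0.0264), with no overlap. This call too was lost in 6 of 8 fits without 1 library, all but those without URE GMP replicate 1 or URE LSK replicate 2, with an adjusted p of up to 0.0900. In WT cells its log2 fold change was -0.43 (SE 0.22, adjusted p = 0.180), lower in GMPs in 4 of 4 numbered pairs.

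For Dnmt1, Uhrf1 and Tet2 the mean was higher in GMPs than in LSKs of WT mice, with log2 fold changes of 0.51 (SE 0.57, adjusted p = 0.559), 0.56 (SE 0.51, adjusted p = 0.462) and 0.53 (SE 0.37, adjusted p = 0.333). With the replicate block these were 0.46, 0.46 and 0.48 at adjusted p of 0.00903, 0.0329 and 0.0189, each with a fold change below the minimum of 1.5, so none became a call. Dnmt1 and Tet2 were higher in the GMP library in 4 of 4 WT pairs and Uhrf1 in 3 of 4. In URE cells the block gave -0.03 for Dnmt1, 0.36 for Uhrf1 and 0.46 for Tet2 (adjusted p = 0.884, 0.0616 and 0.0419). Tet3 did not pass in either genotype, at -0.04 (SE 0.41, adjusted p = 0.961) and -0.38 (SE 0.45, adjusted p = 0.590).

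Within each group, libraries of replicates 1 and 4 stood apart from those of replicates 2 and 3, and several members followed this split more than any labelled factor. The mean CPM of Dnmt1 in replicates 1 and 4 was 3.07 times that in replicates 2 and 3 in WT LSKs, 3.09 times in URE LSKs, 3.36 times in WT GMPs and 2.69 times in URE GMPs. Uhrf1 did the same at 2.35, 2.49, 2.55 and 2.07 times, and Tet3 at 1.88, 2.55, 1.98 and 2.24 times. Tet2 went the other way, at 0.644, 0.762, 0.621 and 0.625 times, with replicate 3 the highest in all 4 groups. Its replicate 2 was above replicates 1 and 4 in WT LSKs (43.2 CPM) and URE GMPs (63.0 CPM). It was not in WT GMPs (44.8 against 54.8 and 42.5 CPM) or URE LSKs (33.9 against 42.3 and 33.9 CPM), so there the ratio rested on replicate 3. Dnmt3a shared the direction of Dnmt1 in all 4 groups at a smaller size, 1.13 to 1.403 times, and Dnmt3b that of Tet2, at 0.782 to 0.951 times. For Tet1 the ratio was 0.834 to 1.17. The median of all genes tested was near 0 on the log2 scale in every group (-0.07 to 0), and the members at 2.07 to 3.36 times lay between the 90.7th and the 95.3rd percentile of all genes.

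For the S phase and cell cycle list, 18 genes such as the Mcm helicase subunits, the median log2 ratio was 0.10 to 0.14. This was a small shift in the direction of Dnmt1 in every group. The summed level of the list was lowest in replicate 3 of each group. In WT LSKs replicates 1 and 4 (4758 and 5384 CPM) lay above replicates 2 and 3 (4701 and 3880 CPM), as they did in WT GMPs. In URE cells the 2 sets overlapped. Mcm2 alone ranged from 131 to 926 CPM in WT GMPs. Over 9472 genes with a mean of at least 8 CPM, the log2 ratio of replicates 1 and 4 to 2 and 3 rose with the GC content of the longest coding transcript, with a Spearman's rho across genes of 0.297 to 0.375 in the 4 groups, and with its length, at 0.273 to 0.382. Genes are not independent replicates, so these are descriptions. Dnmt1 (54.0% GC), Uhrf1 (53.7%), Tet3 (53.4%), Dnmt3b (53.1%) and Dnmt3a (51.9%) lay above the median of 49.3%, and Tet1 (43.7%) and Tet2 (45.4%) below it. Dnmt3b, with a GC content close to that of Tet3, had ratios below 1 in all 4 groups, and Tet1, with the longest transcript of the 7, had ratios on both sides of 1. The part of GC content and length in the split was not tested. The genotype differences themselves had a rho with GC of -0.003 in LSKs and 0.098 in GMPs over the same genes, and a rho with length of 0.160 and 0.0814. The differences of GMPs from LSKs had a rho with length of -0.228 in WT and -0.263 in URE, and Tet1, the longest transcript of the 7, was called lower in both. The part of length in these calls was not tested.

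**Figure D3:**
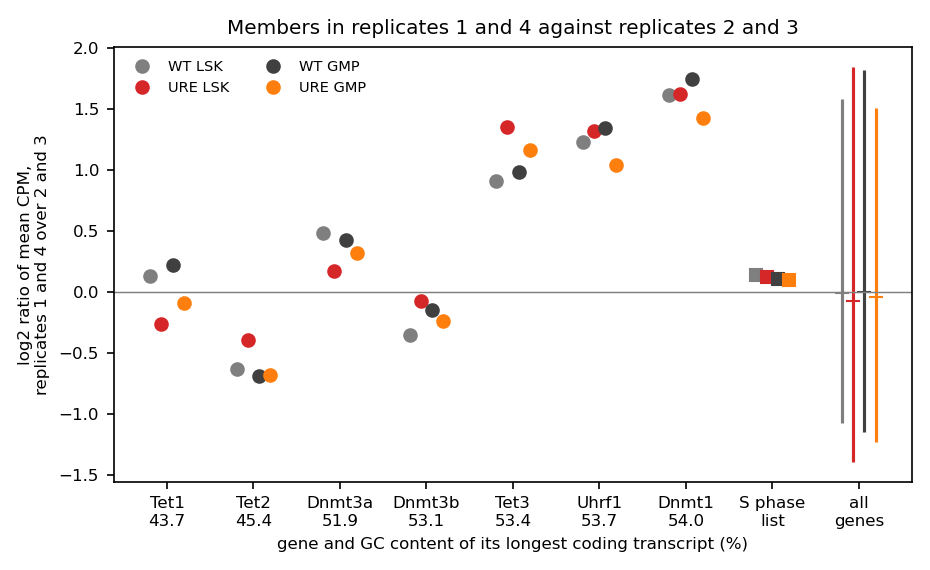
Log2 ratio of the mean CPM in replicates 1 and 4 to that in replicates 2 and 3, by group, for the members in order of the GC content of their longest coding transcript, for the median of the S phase list, and for all genes tested (tick, median; line, 5th to 95th percentile). Dnmt1, Uhrf1, Tet3 and, by less, Dnmt3a were above 0 in all 4 groups and Tet2 and Dnmt3b below 0 in all 4, while the S phase list was between 0.10 and 0.14.

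The members thus fell into patterns that can be described over the 16 libraries, which share the groups and the split above. Pearson's r of log2 CPM was 0.917 between Dnmt1 and Uhrf1, 0.821 between Dnmt1 and Tet3 and 0.661 between Uhrf1 and Tet3, and after subtraction of group means it was 0.928, 0.899 and 0.766. Dnmt3a and Dnmt1 went from 0.239 to 0.730. Dnmt3a and Tet1 had an r of 0.846, which fell to 0.343 once group means were subtracted, and Dnmt3b and Tet1 went from 0.692 to 0.168. Uhrf1 and Tet2 had an r of -0.546 before and -0.817 after. The first set of pairs therefore varied together between libraries of a group, and the pairs with Tet1 between groups.

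Among 9069 other genes, those with a pattern most like each member over the 16 libraries were named by the same measure. For Tet1 they were Flt3, the receptor for Flt3 ligand (r = 0.956), Epsti1 (0.955) and the interferon-induced gene Ifit1 (0.952). For Dnmt3a they were Med13l (0.906), Rab3il1 (0.889) and again Flt3 (0.885). Dnmt1 was followed by Cad, an enzyme of pyrimidine synthesis (0.986), Nup188 (0.982) and Ubap2 (0.981), and Uhrf1 by Bak1 (0.990), Wars (0.984) and Arhgdia (0.982). Dnmt3b was most like Slc24a5 (0.954) and Ap5s1 (0.941), and Tet3 most like Usp36 (0.956), Armh3 (0.952) and Bag6 (0.947). Tet2 had the loosest neighbours, Son (0.825), Ccl25 (0.825) and Alms1 (0.819).

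The genes around the family were counted as 6 lists. In LSKs, genotype changed 2 of 7 tested genes of TET cofactor supply and TET partners, both lower in URE: Idh2 and Idh1, which make alpha-ketoglutarate, the cofactor of the TET enzymes, in mitochondria and cytosol. None of 13 partners of the methyltransferases and Uhrf1, 8 readers of methylated CpG, 12 genes for repair of oxidised or deaminated cytosine, 11 genes of methyl donor metabolism and 18 S phase genes was called, against 6.14% of all genes tested. Idh2 was at 284, 328, 230.1 and 351 CPM in WT LSKs and at 165, 202, 134 and 142 CPM in URE LSKs. The groups did not overlap (log2 fold change -0.92, SE 0.19, adjusted p = 0.0183). Idh1 was at 57.9, 65.9, 60.6 and 70.8 CPM in WT LSKs and at 43.8, 42.4, 39.4 and 37.0 CPM in URE LSKs. Its log2 fold change was -0.68 (SE 0.15, adjusted p = 0.0289), and the call was lost whichever of the 8 libraries was left out, at adjusted p of 0.0561 to 0.110, while Idh2 lost it in 4 of 8 such fits (without URE LSK replicate 1 or 4 or WT LSK replicate 2 or 4, up to 0.0698).

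In GMPs, 1 of 13 tested partners, 1 of 12 genes of the repair list and 1 of 7 of the cofactor list were called between genotypes, and none of the 8 readers, of 11 genes of methyl donor metabolism or of the 18 of the S phase list, against 8.30% of all genes tested. Dnmt3l, a catalytically inactive relative that stimulates Dnmt3a and Dnmt3b, was at 0.433, 1.04, 1.17 and 0.519 CPM in WT GMPs and at 4.63, 7.78, 2.77 and 4.11 CPM in URE GMPs. These rest on 10 to 25 counts in each WT library and 54 to 149 in each URE library. The log2 fold change was 2.57 (SE 0.46, adjusted p = 0.00881). In LSKs Dnmt3l had 1 to 18 counts per library in either genotype. Gadd45b, a stress-induced gene linked to active demethylation, was at 4.07 to 6.94 CPM in WT GMPs and at 11.2, 32.1, 7.53 and 30.5 CPM in URE GMPs (log2 fold change 1.95, SE 0.46, adjusted p = 0.0321), a call lost in 6 of 8 fits without 1 library, all but those without URE GMP replicate 1 or 3 (up to 0.0962). Idh2 was at 357 to 502 CPM in WT GMPs and 219 to 350.0 CPM in URE GMPs (log2 fold change -0.67, SE 0.18, adjusted p = 0.0482), a call kept in 1 of 8 such fits, that without URE GMP replicate 2 (up to 0.140). With the Y-linked covariate in the fit, the calls between genotypes of Idh2 (adjusted p = 0.0592) and Idh1 (0.118) in LSKs and of Gadd45b (0.214) and Idh2 (0.147) in GMPs were lost, and that of Dnmt3l was not (0.0336). Idh2 in GMPs was also lost with DESeq2 size factors (0.0553) and with no filter on low counts (0.0880), and Idh1 in LSKs with no filter (0.0958) and in a joint fit of 16 libraries (0.0777). The interaction of genotype and cell type was called for no gene of the 6 lists.

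Between GMPs and LSKs of WT mice, 13 of 18 S phase genes were called higher in GMPs and none lower, with a list median of 0.93 against -0.09 over all genes tested, of which 11.5% were called higher. The smallest adjusted p were those of Rrm2, a subunit of ribonucleotide reductase, at 1.84 (SE 0.15, adjusted p = 6.1e-05), and of the mitotic genes Aurkb (1.28) and Ccnb1 (1.15). In URE mice 2 of 18 were called, Rrm2 (1.36) and Cdk1 (0.76), with a list median of 0.38, against 9.20% of all genes tested that were called higher, so this share was near the background. The sum over the list was 3880 to 5384 CPM in WT LSKs, 4345 to 7005 CPM in URE LSKs, 6818 to 9064 CPM in WT GMPs and 6511 to 8882 CPM in URE GMPs. Dnmt1 and Uhrf1, which act at replication, were not called in these comparisons, as given above.

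Of the partners, the chromatin remodeller Hells (0.97) and the replication clamp Pcna (0.62) were higher in WT GMPs than in WT LSKs, and Dnmt3l (4.09) was higher in URE GMPs than in URE LSKs. Of the readers, Zbtb4 was lower in GMPs in both genotypes (-2.75 in WT, -2.01 in URE) and Zbtb38 in URE (-0.93). Of the repair list, Gadd45b (3.09) and Gadd45g (1.98) were higher in URE GMPs than in URE LSKs. Of the cofactor list, Idh1 was higher in GMPs in both genotypes, at 2.31 (SE 0.19, adjusted p = 8.3e-05) in WT and 2.58 (SE 0.22, adjusted p = 0.000131) in URE, and Cxxc5, which binds unmethylated CpG and interacts with Tet2, was lower in both (-1.88 and -1.75). Idh2 was higher in GMPs of URE mice (0.76). Of methyl donor metabolism, Shmt1 (0.96) and Ahcy (0.75) were higher in WT GMPs and no gene was called in URE. These values are log2 fold changes at adjusted p below 0.05. Some of these calls rested on single libraries: Pcna was lost without WT LSK replicate 1 or 2 (adjusted p up to 0.0521), Ahcy without WT GMP replicate 4 or WT LSK replicate 2 (0.0645), and Idh2 in URE without URE GMP replicate 2 or 4 or URE LSK replicate 4 (0.0612). The value for Dnmt3l in URE rose from 4.09 to 4.96 without URE LSK replicate 3, the library with the most Dnmt3l counts of that group (15). In URE cells Rrm2 was lost without URE GMP replicate 1 or 2 (0.0558) and Cdk1 without any 1 of the URE GMP libraries or URE LSK replicate 1 (0.0960).

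**Figure D4:**
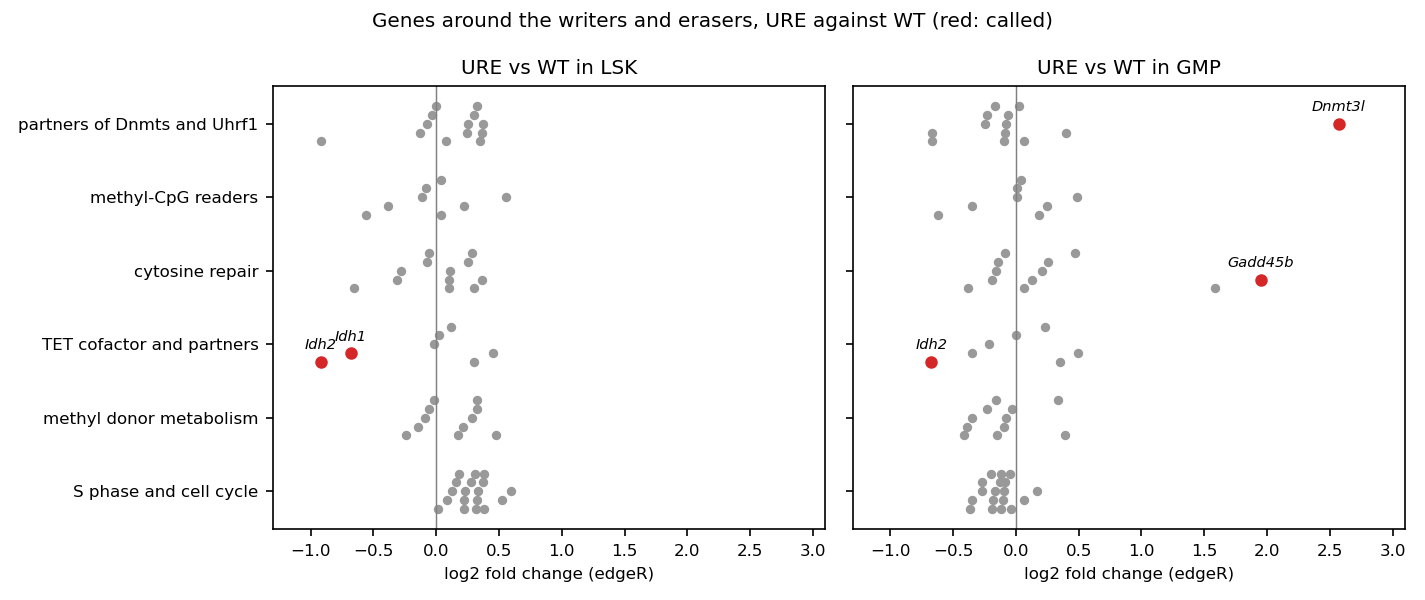
Log2 fold change of URE against WT in LSKs (left) and GMPs (right) for the genes tested in the 6 lists around the family, 1 point per gene, red where called. The 2 red points in LSKs are Idh2 (-0.92) and Idh1 (-0.68), and the 3 in GMPs are Dnmt3l (2.57), Gadd45b (1.95) and Idh2 (-0.67), while all 18 S phase genes stayed uncalled in both.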

How the data were processed

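RNA of up to 10 ng per sample was made into libraries with a low-input kit without strand information or molecular identifiers. The deposited values were estimated counts per gene, which per the labels and the study's methods the authors obtained with Salmon on GRCm38 and imported with tximport. Versions and the annotation release are not given in the sources used here. Estimated counts do not separate reads of near-identical copies with certainty. Counts were rounded, and all 16 columns were mapped to labelled samples. R 4.3.3 with edgeR 4.0.16 (TMM, filterByExpr, glmQLFit, glmQLFTest) was fitted to each pair of groups, over 15154 genes in LSKs, 13829 in GMPs, 14767 between WT GMPs and LSKs, 14395 between URE GMPs and LSKs and 15935 for the interaction over 16 libraries, and was tested on simulated data. CPM used TMM effective sizes, with a prior count of 2 for log2 values. Interactions were called at an adjusted p below 0.05 with no fold minimum. All 7 members were tested in every comparison.

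The members and lists were chosen with earlier results of these data known. All members were named. Of the related lists, the up to 3 called genes with the smallest adjusted p per list and comparison were named, and all where 5 or fewer were called, and of all genes the 3 most correlated with each member. Some genes that these rules name are not reported here. Replicates were labelled as separate samples, and the labels do not say whether LSKs and GMPs of a number came from 1 animal. No replicate pair agreed within sampling noise (smallest chi-square per degree of freedom 29.6 over 24 pairs). For experiments spread over several days, the study states that each day held replicates of all conditions. This is a general statement that does not name the RNA libraries. Same-numbered libraries deviated together from their group means (r 0.303 to 0.607 between genotypes in LSKs, 0.283 to 0.629 in GMPs, 0.467 to 0.763 between WT cell types, 0.444 to 0.581 between URE cell types), so the numbers were taken to pair the samples. Alternatives were DESeq2 1.42.0, its size factors, other filters, a joint fit, the replicate block, a term for and fits within the replicate sets, a Y-linked covariate, no fold minimum and leaving out each library.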

Additional observations from a re-analysis of the deposited data

Results flagged for a closer look

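Tet1 in URE LSKs had 1 library away from the others: replicate 3 at 51.5 CPM, against 36.7 to 37.5 CPM in replicates 1, 2 and 4. Dixon's test at 95% marked this library, the only one among 36 groups of 4 tested over members, Spi1 and total counts, where chance gives about 2. It was still below every WT LSK library.

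The genotype effect on Spi1 differed between cell types by the interaction test, with a log2 difference of 2.64 (SE 0.52, adjusted p = 0.0218): the log2 fold change was -5.39 in LSKs and -2.73 in GMPs. Without WT LSK replicate 4 the adjusted p was 0.0503, the highest of the 16 fits without 1 library.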

How the results depend on the processing

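Over the 7 members, 5 comparisons and 10 to 12 alternatives, not counting left-out libraries, most results kept their direction and their side of the threshold. The call of Tet1 between cell types held in all of them in both genotypes. Between genotypes it was lost in LSKs within replicates 2 and 3, and in GMPs within replicates 2 and 3 and with the Y-linked covariate. It held in all 8 fits without 1 library in each comparison.

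Members called between genotypes in LSKs were 1, and 0 within replicates 2 and 3. In GMPs they were 1, and 2 under DESeq2, the replicate block, DESeq2 with the block, and the term for replicates 1 and 4 (Dnmt3a being added), 0 within replicates 2 and 3 and with the Y-linked covariate, and 1 to 2 without 1 library. Between cell types in WT they were 2, and 1 under DESeq2, its size factors, no filter, DESeq2 with the block and within either replicate set, and 1 to 2 without 1 library. In URE they were 3, 2 with no filter and within replicates 1 and 4 (Dnmt3a being lost, at adjusted p of 0.0585 and 0.0528), 1 within replicates 2 and 3, and 2 to 3 without 1 library. Interactions were 0 of 7, and 1 (Dnmt3b) under DESeq2 with the block.

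All genes called were, in LSKs, 930, and 1632 under DESeq2, 1433 with the block, 2132 with both, 1425 with the replicate-set term, 386 within replicates 2 and 3, 505 with the Y-linked covariate and 565 to 961 without 1 library, the changes over 1.5 times coming without WT LSK replicate 2 or 4. In GMPs they were 1148, and 1999, 2260, 2813, 1880, 108, 619 and 715 to 1176 in the same order, below 1148 by over 1.5 times without URE GMP replicate 4. Between WT cell types they were 4037, and 6458 under DESeq2 with the block and 2507 within replicates 2 and 3. Between URE cell types they were 3133, and 5272 and 810. Interactions were 194, and 672 under DESeq2, 1047 with the block, 2039 with both, 572 with the term, 2 within replicates 2 and 3 and 84 to 283 without 1 library. In edgeR, the replicate block changed no call among members other than that of Dnmt3a in GMPs.

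Members with a log2 fold change near 0 changed sign. Tet2 in LSKs was 0.00215 under DESeq2, 0.00242 with its size factors, 0.00853 in the joint fit, 0.0187 under DESeq2 with the block, 0.12 within replicates 1 and 4 and 0.28 with the Y-linked covariate. Tet3 in LSKs was 0.0728 within replicates 1 and 4 and 0.14 with the covariate. In GMPs, Dnmt1 was 0.00786 with the block, 0.00420 under DESeq2 with it, 0.14 within replicates 2 and 3 and 0.0172 with the covariate, Tet2 0.0275, 0.0237 and 0.11 with the block, both and the covariate, and Uhrf1 -0.0875 within replicates 1 and 4. Between WT cell types, Tet3 was 0.0388 under DESeq2, 0.0301 with its size factors and 0.0359 under DESeq2 with the block, and Spi1 -0.00274 within replicates 1 and 4. Between URE cell types, Dnmt1 was 0.00312 under DESeq2, 0.0390 under DESeq2 with the block and 0.13 within replicates 2 and 3. The interaction of Tet2 was 0.0192 with the block and 0.0852 within replicates 2 and 3, and that of Uhrf1 0.0732 there. Without 1 library, ranges that crossed 0 were, in LSKs, -0.0321 to 0.42 (Uhrf1), -0.29 to 0.25 (Tet2) and -0.30 to 0.35 (Tet3), in GMPs -0.40 to 0.46 (Dnmt1), -0.31 to 0.37 (Uhrf1), -0.31 to 0.40 (Tet2) and -0.57 to 0.0880 (Tet3), between WT cell types -0.43 to 0.38 (Tet3) and -0.0345 to 0.39 (Spi1), between URE cell types -0.39 to 0.24 (Dnmt1), and for interactions -0.52 to 0.13 (Uhrf1), -0.29 to 0.39 (Tet2) and -0.70 to 0.11 (Tet3). The causes were not tested.

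Fits within replicates 1 and 4, also with 2 libraries per group, called 988, 1236, 3033 and 4222 genes and 174 interactions in the order above. Scaling by DESeq2's size factors moved the median of all genes by at most 0.0706 on the log2 scale. The number of libraries, 4 per group, bounds the precision for the members, which had at least 178 counts in every library.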
